A study of Homo sapiens with 11 samples.

Results

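Endothelial cells line the blood vessels, and 10 genes that mark them were followed in tumours grown from BT-474, a human breast cancer cell line, in mice given vehicle or evexomostat. The genes were chosen by symbol, as vessel markers, from the 28152 gene symbols of the count table, and all 10 were in it: PECAM1, CDH5, KDR, TEK, ENG, VWF, FLT1, TIE1, ESAM and CLDN5. RNA was sequenced from 11 tumours, 1 library each, 6 from vehicle and 5 from evexomostat animals. All animals were female athymic nude mice, which lack mature T cells, and all carried a slow-release pellet of 0.72 mg estradiol (90 days) and BT-474 cells in 50% Matrigel in the fourth mammary fat pad, with enrolment above 95 cubic millimetres. The evexomostat group received 12 mpk of this inhibitor of methionine aminopeptidase 2 (MetAP2, which removes the first methionine of new proteins) under the skin every 4 days in 5% mannitol, the vehicle group 5% mannitol on the same schedule, and the labels give day 33 for every library. Tumours of 1 line in 1 strain were measured, and whether they came from separate cages or implant days is not recorded in the labels.

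Vessel growth is driven by VEGF ligands acting on the receptors KDR and FLT1, and vessels are stabilised by angiopoietins acting on TEK. Endothelial cells are held together by VE-cadherin (CDH5) and claudin-5 (CLDN5), and they store von Willebrand factor (VWF) for release at injury. MetAP2 inhibitors of the fumagillin class have long been studied as blockers of endothelial growth, so whether vessel transcripts differ in treated tumours is a question the comparison bears on. In a xenograft the tumour cells are human and the vessels are grown by the mouse. A mouse transcript enters these counts only where its reads aligned to the human gene, and human and mouse molecules cannot be told apart in the table. In bulk RNA, fewer cells of a type and less RNA per cell also cannot be told apart.

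Library totals were 22808033 to 39249329 counts, so the limit of 3 counts lay between 0.0764 and 0.132 reads per 1000000 counted reads (RPM), which covers counting error only. Vehicle tumour 001 stood apart from the rest, where the 100 top genes held 23.9% of the counts (16.2% to 17.9% in the other 10 libraries). Of the 10 markers of the labelled line, KRT8 averaged 331.6 RPM, KRT18 148.6 RPM and ERBB2 53.7 RPM. The others were lower, with GATA3 at 6.50 RPM, EPCAM at 3.03, FOXA1 at 1.05, KRT19 at 0.803 and CDH1 at 0.456 RPM. ESR1 had 1 to 17 counts per library and PGR 0 to 5. The 2 hormone receptor genes that the label HR+ refers to were thus at or near the limit of detection.

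The 10 markers were present at very unequal levels, and CDH5, the cadherin of endothelial junctions, was nearly absent. ENG averaged 55.9 ± 13.6 RPM (SD, n = 11), KDR 5.57 ± 2.21, PECAM1 4.99 ± 1.71, CLDN5 2.04 ± 1.00, VWF 1.93 ± 1.26, FLT1 1.29 ± 0.680 and ESAM 0.725 ± 0.130 RPM. TEK averaged 0.340 ± 0.236 RPM, TIE1 0.0921 ± 0.0912 and CDH5 0.0124 ± 0.0218 RPM. CDH5 had 4 counts in all 11 libraries together, 0 in 8 of them and never more than 2, which is under the limit of 3 counts in every library. TIE1 had 0 to 9 counts and exceeded 3 counts in 4 libraries.

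**Figure D1:**
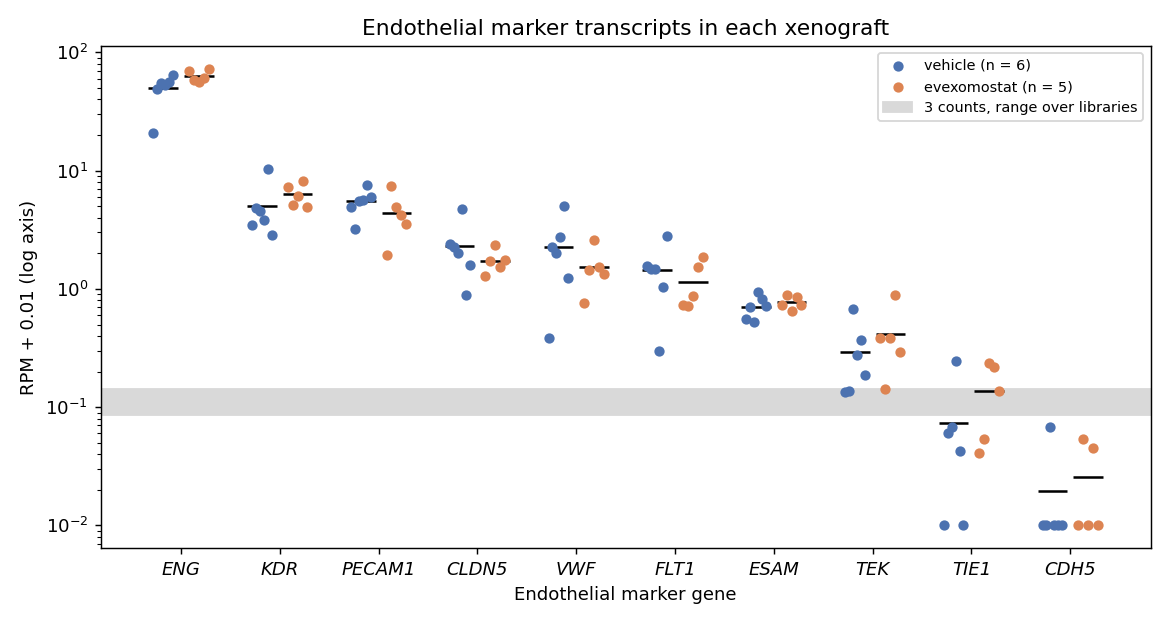
RPM plus 0.01 of the 10 endothelial markers on a log axis, with 1 point per tumour (6 vehicle, 5 evexomostat), black bars at the group means and a grey band at 3 counts. ENG lies far above the other genes, all CDH5 points lie under the band, and the 2 groups overlap for every gene.

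Levels were compared between genes as mean RPM per kilobase of the longest GENCODE 29 protein-coding transcript. ENG was highest at 18.3 RPM per kilobase, 19.9-fold above the next gene and above it in 11 of 11 libraries. KDR (0.920 RPM per kilobase), CLDN5 (0.801) and PECAM1 (0.730) followed and were not separable, since KDR exceeded CLDN5 in 6 of 11 libraries and CLDN5 exceeded PECAM1 in 6 of 11. PECAM1 exceeded ESAM (0.397 RPM per kilobase) in 10 of 11 libraries, and ESAM exceeded VWF (0.219) in 10 of 11. VWF and FLT1 (0.182 RPM per kilobase) were not separable, with VWF above FLT1 in 6 of 11 libraries. FLT1 was above TEK (0.0715 RPM per kilobase) in 10 libraries, TEK above TIE1 (0.0237) in 10 and TIE1 above CDH5 (0.0030) in 9. In the summed RPM of the 10 genes, ENG made up 60.8% to 84.2% per library, so a sum over the markers mostly reads ENG.

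For 3 receptor genes at different points of this order, ENG, KDR and TIE1, the 250 bases before the RefSeq start (GRCh38.p14) are shown, with the ETS core GGAA of either strand in capitals. Endothelial genes are known to be controlled by ETS factors. The sequences are read 5′ to 3′ on the gene's strand.
ENG: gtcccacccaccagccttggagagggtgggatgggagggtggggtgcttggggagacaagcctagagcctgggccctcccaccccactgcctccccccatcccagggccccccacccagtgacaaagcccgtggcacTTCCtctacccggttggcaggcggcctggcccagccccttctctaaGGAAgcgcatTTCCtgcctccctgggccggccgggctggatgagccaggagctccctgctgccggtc
KDR: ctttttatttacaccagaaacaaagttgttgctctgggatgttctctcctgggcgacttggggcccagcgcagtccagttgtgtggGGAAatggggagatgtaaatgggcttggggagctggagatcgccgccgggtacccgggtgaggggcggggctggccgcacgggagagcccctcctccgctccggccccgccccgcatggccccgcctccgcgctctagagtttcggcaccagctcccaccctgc
TIE1: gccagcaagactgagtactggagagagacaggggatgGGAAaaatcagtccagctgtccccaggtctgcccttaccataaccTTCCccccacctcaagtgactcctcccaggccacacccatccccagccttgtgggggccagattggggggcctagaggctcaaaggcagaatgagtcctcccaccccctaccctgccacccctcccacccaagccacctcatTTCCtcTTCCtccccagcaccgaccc

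The ENG window is chr9:127854659-127854908 (minus strand), the KDR window chr4:55125596-55125845 (minus strand) and the TIE1 window chr1:43300732-43300981 (plus strand). GGAA on either strand, overlaps counted, occurred 3 times in the ENG window, 1 time in the KDR window and 4 times in the TIE1 window. At least 1 such match is found in 92.7% of 35116 windows of this length, at least 3 in 55.1% and at least 4 in 34.3%. The dinucleotide CG occurred 7 times upstream of ENG, 17 times upstream of KDR and 1 time upstream of TIE1, and 58.9%, 39% and 93.9% of windows hold at least as many. A match is a description of the letters in a window and was not set against the levels. Of the 10 members, 5 had an entry in the RefSeq promoter table.

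No endothelial marker passed the test between evexomostat and vehicle tumours, and the estimates pointed both ways. Of the 10 genes, 8 passed the filter on low counts and were tested with edgeR's quasi-likelihood test across all 16653 tested genes. The number past a Benjamini-Hochberg adjusted p of 0.05 was 0 of 8, against 0.606% of all tested genes. No marker had an unadjusted edgeR p under 0.05 (0 of 8, against 13.4% of all tested genes), and DESeq2 and limma-voom each called 0. In all 8 markers the groups overlapped in scaled counts, so 0 were separated, against 2.97% of all tested genes. Among 8 genes, counts of 0 cannot be told apart from these background shares. Of the 8 log2 fold changes, 4 were positive and 4 negative, with a median of -0.20 against -0.04 over all tested genes. In the authors' deposited table, 0 of the 10 markers have an adjusted p under 0.05, against 0.952% of its genes.

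**Figure D2:**
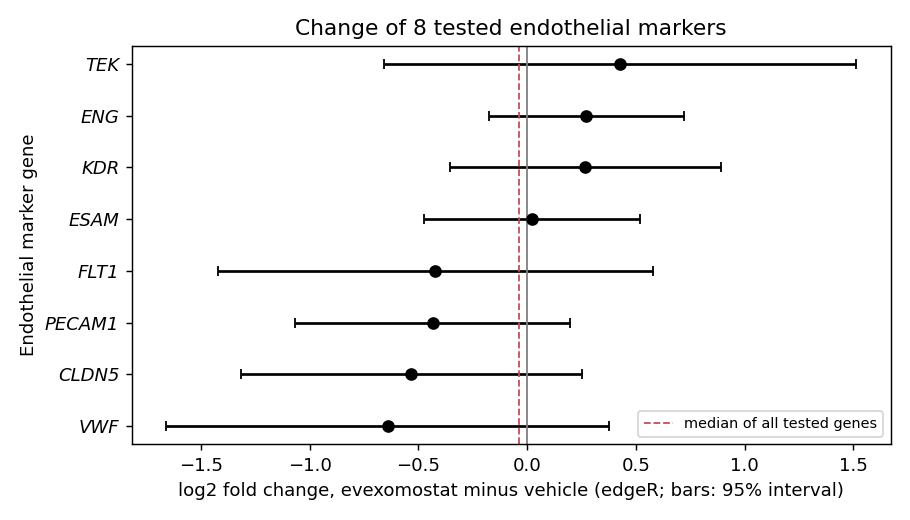
Log2 fold change (evexomostat minus vehicle) of the 8 tested endothelial markers from edgeR, with 95% intervals, and a dashed line at the median of all tested genes (-0.04). All 8 intervals include 0, and the estimates run from -0.64 for VWF to 0.43 for TEK.

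Among the VEGF receptors, KDR (VEGFR2), the main signalling receptor for VEGF-A, was at 2.84, 4.20 and 10.3 RPM (lowest, median and highest of 6 vehicle tumours). Its values were 7.20, 5.13, 6.11, 8.12 and 4.91 RPM in evexomostat tumours 002, 003, 004, 005 and 007. All 5 treated tumours were above the vehicle median, but vehicle tumour 006 had the highest KDR of all 11. KDR had an estimate of 0.27 on the log2 scale (SE 0.29, with an adjusted p in edgeR of 0.761), and its 95% interval spans a 0.782-fold to a 1.85-fold level. Without vehicle tumour 006 it was 0.58 (edgeR adjusted p 0.248, range over the alternatives 0.217 to 0.915).

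FLT1 (VEGFR1) binds VEGF-A, VEGF-B and placental growth factor and is also made as a soluble form, which gene counts do not separate. It was at 0.291, 1.46 and 2.77 RPM (lowest, median, highest) under vehicle. The evexomostat tumours 002, 003, 004, 005 and 007 had 0.717, 0.702, 0.862, 1.53 and 1.86 RPM of FLT1, all inside the vehicle range. Its log2 fold change was -0.42 (SE 0.46, edgeR adjusted p 0.766), and it was -0.11 without vehicle tumour 007 and -0.69 without evexomostat tumour 007. FLT1 was lowest in vehicle tumour 005 and highest in vehicle tumour 007, where KDR was lowest.

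TEK (TIE2), the angiopoietin receptor, and its partner receptor TIE1 were close to the limit of detection. TEK was at 0.125, 0.220 and 0.661 RPM (lowest, median, highest) under vehicle and at 0.374, 0.132, 0.375, 0.871 and 0.283 RPM in evexomostat tumours 002, 003, 004, 005 and 007. The TEK log2 fold change was 0.43 (SE 0.50, edgeR adjusted p 0.784). It rested on evexomostat tumour 005, the highest of all, and was -0.03 without it. That tumour also had the most skeletal muscle RNA, with 560.3 RPM summed over 12 muscle genes against 4.83 to 62.7 in the other libraries, and the part of muscle tissue in its TEK value was not tested.

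TIE1 failed the count filter. It had 0 to 9 counts per vehicle tumour and 1 to 6 per evexomostat tumour, or 0.0631 ± 0.0891 RPM (SD, n = 6) and 0.127 ± 0.0900 (SD, n = 5), with a two-sided exact permutation p of 0.251 over 462 arrangements. CDH5 also failed the filter and had 2 counts in 6 vehicle libraries and 2 in 5 evexomostat libraries (exact permutation p 0.848). Fitted in edgeR with no filter, the log2 fold change was 0.78 for TIE1 (SE 0.78, adjusted p 0.726) and 0.30 for CDH5 (SE 1.17, adjusted p 0.953). All CDH5 counts lay under the limit of 3, so a difference in CDH5 was not detectable from these counts.

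ENG (endoglin), a coreceptor for ligands of the TGF-beta and BMP family that is also made by mesenchymal cells, was at 20.7, 54.0 and 64.9 RPM (lowest, median, highest) under vehicle. The evexomostat tumours 002, 003, 004, 005 and 007 had 69.2, 58.1, 56.5, 60.3 and 72.7 RPM of ENG. All 5 lay above the vehicle median, and the only vehicle tumour far from the others was 001 at 20.7 RPM. For ENG the estimate was 0.27 on the log2 scale (SE 0.21, with an adjusted p in edgeR of 0.638), and the 95% interval reaches from 0.886-fold to 1.65-fold. Without vehicle tumour 001 its log2 fold change was 0.14 (edgeR adjusted p 0.509, range over the alternatives 0.354 to 0.835). ACVRL1, the type I receptor that works with ENG in endothelium, was at 0.889 ± 0.507 RPM (SD, n = 6) and 0.428 ± 0.189 (SD, n = 5), a log2 fold change of -1.14 (edgeR adjusted p 0.289).

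Among the junction proteins, PECAM1 (CD31), which is also carried by platelets and leukocytes, was at 3.18, 5.63 and 7.52 RPM (lowest, median, highest) under vehicle. It was at 1.93, 7.37, 4.87, 4.22 and 3.52 RPM in evexomostat tumours 002, 003, 004, 005 and 007. Only 1 of 5 treated tumours was above the vehicle median, and the treated tumours held both a value near the vehicle maximum and the lowest of all. The PECAM1 estimate was -0.43 on the log2 scale (SE 0.29, with an adjusted p in edgeR of 0.584), with a 95% interval from 0.478-fold to 1.15-fold. It was -0.25 without evexomostat tumour 002 and -0.68 without evexomostat tumour 003 (edgeR adjusted p 0.356, unadjusted p 0.0341, adjusted range over the alternatives 0.257 to 0.832). The leukocyte gene PTPRC (CD45) ranged from 44 to 79 counts over the 11 libraries, and of the 6 platelet genes PF4, PPBP and GP9 had 0 counts in all of them, while GP1BA, ITGA2B and GP6 had 9 to 81 counts per library.

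CLDN5, the claudin of endothelial tight junctions, was at 0.875, 2.14 and 4.73 RPM (lowest, median, highest) under vehicle and at 1.28, 1.71, 2.32, 1.53 and 1.76 RPM in evexomostat tumours 002, 003, 004, 005 and 007. The treated tumours lay inside the vehicle range, whose top was vehicle tumour 005. The log2 fold change of CLDN5 was -0.53 (SE 0.36, edgeR adjusted p 0.588) and was -0.20 without vehicle tumour 005. Without vehicle tumour 006 it was -0.71 (edgeR adjusted p 0.327, unadjusted p 0.0396, adjusted range over the alternatives 0.291 to 0.847).

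ESAM, an adhesion molecule of endothelium and platelets, was at 0.517, 0.695 and 0.925 RPM (lowest, median, highest) under vehicle. Its evexomostat values were 0.717, 0.877, 0.637, 0.836 and 0.724 RPM in tumours 002, 003, 004, 005 and 007. The log2 fold change was 0.02 (SE 0.23, edgeR adjusted p 0.984), and its 95% interval reaches from 0.720-fold to 1.43-fold. The highest ESAM value was 1.79 times the lowest across the 11 libraries, against 3.51 times for ENG and 13.4 times for VWF.

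VWF, the clotting protein stored in endothelial granules and in platelets, varied most of the genes that exceeded 3 counts in every library. It was at 0.375, 2.13 and 5.03 RPM (lowest, median, highest) under vehicle, and at 0.748, 1.45, 2.59, 1.53 and 1.32 RPM in evexomostat tumours 002, 003, 004, 005 and 007. Vehicle tumours 001 and 006 formed the ends of the range, and 1 of 5 treated tumours exceeded the vehicle median. Its log2 fold change was -0.64 (SE 0.47, edgeR adjusted p 0.625), -0.84 without vehicle tumour 001 (edgeR adjusted p 0.189, range over the alternatives 0.189 to 0.840) and -0.28 without vehicle tumour 006. With vehicle tumour 001 left out, 0 of 8 markers passed the threshold, while 5.22% of all tested genes did.

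**Figure D3:**
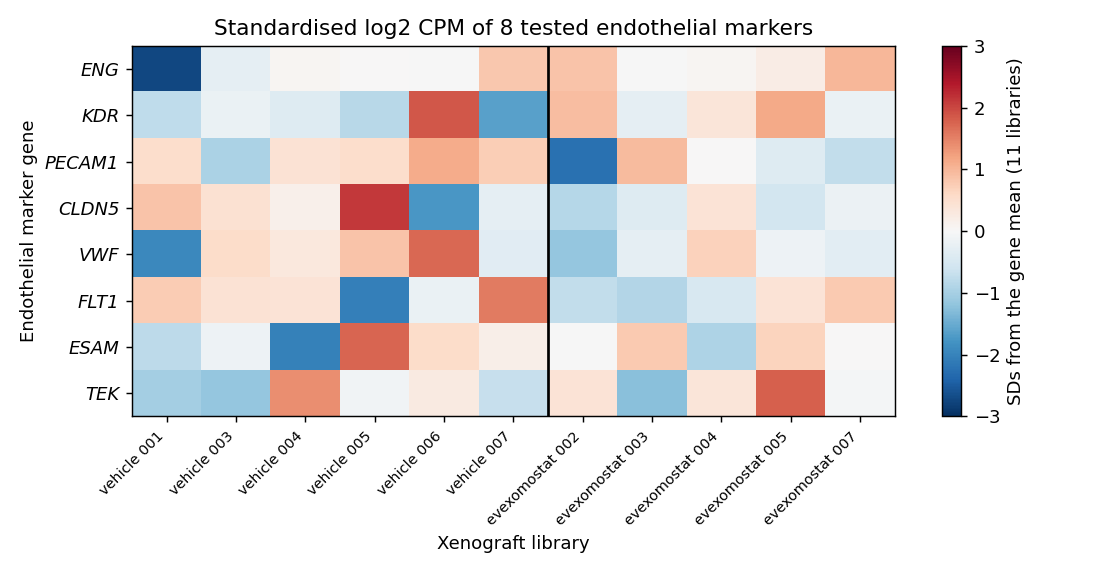
Log2 CPM (scaled counts, per 1000000) of the 8 tested markers in each library, in SDs from the gene's mean over 11 libraries (red high, blue low), with vehicle tumours left of the black line. No column is red or blue throughout: vehicle 006 is high in KDR and VWF and low in CLDN5, and vehicle 005 is high in CLDN5 and ESAM and low in FLT1.

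Across the tumours the markers showed no shared profile in their pairwise correlations. Over the 28 pairs of the 8 tested markers, Pearson's r of log2 CPM across the 11 libraries had a median of -0.01, and 14 of 28 pairs were positive. The highest pair was KDR with TEK (r = 0.51, Spearman's rho 0.49) and the lowest KDR with CLDN5 (r = -0.65, rho -0.63). Median r was -0.03 without vehicle tumour 001 and at -0.04 without evexomostat tumour 005. A median near 0 was not particular to the endothelial markers. It was -0.06 for pericyte and smooth muscle genes, -0.09 for the labelled line and 0.07 for junction genes. The remaining lists ran from -0.19 (platelet) to 0.16 (fibroblast), apart from adipocyte genes at 0.45 and skeletal muscle genes. The 7 tested skeletal muscle genes had 21 of 21 pairs positive and a median r of 0.90, or 0.80 without evexomostat tumour 005. These r values describe 11 libraries that share the drug comparison and carry no test. By tumour, the highest level of a member fell in vehicle tumours 005 and 006 for 3 genes each and in vehicle tumours 001 and 003 and evexomostat tumours 002, 003 and 004 for none. Vehicle tumour 001 had the lowest level of 3 members.

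**Figure D4:**
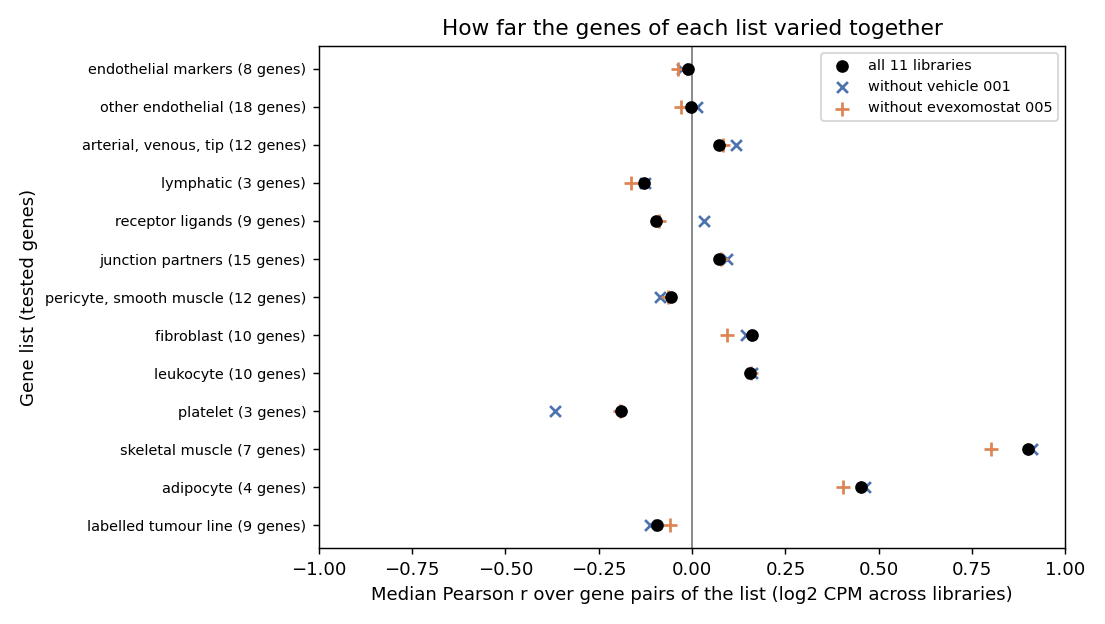
Median Pearson r over all pairs of tested genes within each list, across 11 libraries (black), without vehicle 001 (blue crosses) and without evexomostat 005 (orange plus signs). The endothelial markers sit at -0.01 and other endothelial genes at -0.002. Skeletal muscle genes sit at 0.90 and adipocyte genes at 0.45, and the remaining lists run from -0.19 (platelet) to 0.16 (fibroblast).

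Genes whose profile was most like the mean standardised profile of the 8 markers were named by a fixed rule. LOC100507283 (r = 0.92), KLHL20 (0.91), MOCS1 (0.91), GABRQ (0.90) and ARAF (0.89) had the highest Pearson r over 11 libraries, out of all other tested genes. With the group means removed, KLHL20 (0.95), LOC100507283 (0.92), MOCS1 (0.92), GABRQ (0.91) and SPOCK1 (0.90) led. No gene of the other endothelial list was among them. Such values are the highest of many and describe these libraries only.

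The 30 other endothelial genes were as uneven as the markers. In this list 18 of 30 genes passed the count filter and 0 of 18 passed the edgeR test in either direction (3 had an unadjusted p under 0.05, a level reached by 13.4% of all tested genes), with 9 positive and 9 negative log2 fold changes and a median of -0.004. CLEC14A, MYCT1, SELP, BMX, RAMP2 and APLNR, all known from endothelium, had no more than 3 counts in any library. EGFL7, a secreted vessel factor, was the most abundant at 14.3 ± 5.78 RPM (SD, n = 6) and 22.4 ± 4.90 (SD, n = 5), a log2 fold change of 0.54 (edgeR adjusted p 0.457). ECSCR had 6.50 ± 4.58 and 3.60 ± 3.99 RPM (log2 fold change -0.95, edgeR adjusted p 0.606), and ROBO4, a guidance receptor of endothelium, 3.08 ± 1.25 and 4.52 ± 0.760 RPM (log2 fold change 0.47, edgeR adjusted p 0.482).

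Ligands of the member receptors were unevenly counted. Of 11 ligand genes 9 were tested and 0 passed the edgeR test (2 had an unadjusted p under 0.05, against 13.4% of all tested genes). GDF2 had 0 to 2 counts per library and BMP10 0 to 5, and both failed the count filter. TGFB3 averaged 3.93 RPM and PGF 1.97 RPM over the 11 libraries. VEGFB was at 134.5 ± 21.8 RPM (SD, n = 6) and 118.6 ± 24.1 (SD, n = 5), VEGFA at 125.6 ± 71.7 and 106.0 ± 23.1, and VEGFC at 36.0 ± 6.16 and 36.4 ± 7.16 RPM. The TEK ligands ANGPT1 and ANGPT2 were at 0.625 ± 0.245 and 0.612 ± 0.296 RPM under vehicle, with log2 fold changes of -0.05 and 0.09 (edgeR adjusted p 0.980 and 0.955). ANGPT4, the other angiopoietin, was at 0.172 ± 0.153 and 0.477 ± 0.213 RPM, a log2 fold change of 1.39 (edgeR adjusted p 0.285). TGFB1, a ligand of the ENG complex, was at 14.4 ± 6.73 and 28.7 ± 8.20 RPM, and its log2 fold change was 0.92 with SE 0.30 (edgeR adjusted p 0.192).

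Of 15 arterial, venous and tip cell genes, 12 were tested and 0 passed in edgeR. An unadjusted p under 0.05 was found for 4 of these 12, for 2 of 3 tested lymphatic genes and for 3 of 15 junction genes, against 13.4% of all tested genes. The most abundant were EFNB2 (72.6 and 65.4 RPM, vehicle and evexomostat means), NR2F2 (45.4 and 84.6 RPM) and NRP1 (62.4 and 60.7 RPM). Without vehicle tumour 001, NR2F2, a factor of venous identity, rose by 1.03 on the log2 scale (edgeR adjusted p 0.0117) and UNC5B, a netrin receptor of tip cells, fell by 0.68 on the log2 scale (edgeR adjusted p 0.0328). In that fit 5.22% of all tested genes passed, and with all 11 libraries the edgeR adjusted p of these genes was 0.168 and 0.105. Of 5 lymphatic genes 3 were tested and 0 passed. FLT4 (VEGFR3) was at 19.0 and 30.8 RPM, PDPN at 16.9 and 10.8, PROX1 at 4.27 and 2.48, and LYVE1 was at 0 counts in all libraries. Of 15 junction genes shared with epithelium, 15 were tested and 0 passed, led by CTNNA1 (335.2 and 288.5 RPM), CTNNB1 (294.8 and 262.3) and TJP1 (130.4 and 138.9).

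Pericytes and smooth muscle cells wrap vessels, and of 13 such genes 12 were tested and 0 passed in edgeR (4 had an unadjusted p under 0.05, against 13.4% of all tested genes). NOTCH3, the pericyte receptor that tumour cells can also make, was the most abundant at 706.8 ± 339.6 RPM (SD, n = 6) and 328.7 ± 27.1 (SD, n = 5), followed by ABCC9 (76.0 and 62.9 RPM) and MCAM (47.4 and 63.2 RPM). Without vehicle tumour 001, NOTCH3 fell by 1.38 on the log2 scale (edgeR adjusted p 0.0054) and CNN1, calponin of smooth muscle, rose by 2.95 (edgeR adjusted p 0.0323), in the fit where 5.22% of all tested genes passed. With all 11 libraries their edgeR adjusted p was 0.153 and 0.0665.

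Lists of the other cells a xenograft can hold showed 0 genes past the edgeR test on the 11 libraries. The first number in each bracket counts genes with an unadjusted p under 0.05, which 13.4% of all tested genes had. For fibroblasts 10 of 10 genes were tested (0 with an unadjusted p under 0.05; highest COL3A1, COL1A1 and COL1A2), and for leukocytes 10 of 12 (1; CD68, LAPTM5 and ITGAM). For platelets 3 of 6 were tested (2; GP1BA, ITGA2B and GP6), for adipocytes 4 of 7 (0; CFD, LPL and PLIN1) and for red cells 0 of 6, where ALAS2, HBA1 and SLC4A1 were highest and no library exceeded 0.658 RPM in sum. For the labelled line 9 of 10 were tested (0; KRT8, KRT18 and ERBB2), and for skeletal muscle 7 of 12 (7, all with positive log2 fold changes; ACTA1, MYH1 and ATP2A1). The median log2 fold change of the muscle genes was 3.48, and 1.07 without evexomostat tumour 005. Summed leukocyte genes ranged from 66.5 to 140.7 RPM under vehicle and from 82.4 to 120.3 under evexomostat, and summed platelet genes from 2.00 to 4.68 and from 3.78 to 6.62 RPM. The estimates of the 3 tested platelet genes differed in sign. The log2 fold change was -0.69 for GP1BA, 0.02 for ITGA2B and 1.11 for GP6 (edgeR adjusted p 0.302, 0.990 and 0.109). GP6 was at 0.853 RPM under vehicle and 1.99 under evexomostat, with groups that did not overlap in RPM. In scaled counts, 2.97% of all tested genes had groups that did not overlap. Without vehicle tumour 001, where 5.22% of all tested genes passed, GP1BA fell by 0.83 on the log2 scale (edgeR adjusted p 0.0385). The part of such cells in the PECAM1, ESAM and VWF values was not tested.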

How the data were processed

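The authors' deposited table of counts gives, for each gene symbol, raw integer read counts in 11 libraries. The authors' deposited RPM table holds the same counts divided by each library's total and multiplied by 1000000. The authors' deposited comparison table holds log2 fold changes, p-values and adjusted p-values, per the file headers, with no statement of the settings. Per the submitters' processing notes, the tools include bcl2fastq 2.17, STAR 2.7.5c, featureCounts of Subread and edgeR, with builds GRCh37 and hg19. The annotation, strand setting and treatment of mouse reads are not given in the sources used here.

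Columns were matched to tumours by the code in the sample description, and groups came from the titles. Genes were kept by filterByExpr (minimum count 10, minimum total 15), scaled with TMM and tested by the quasi-likelihood method of edgeR 4.0.16 in R 4.3.3, with Benjamini-Hochberg adjustment over all 16653 tested genes. Standard errors are those implied by the F statistic. P-values set the difference between the groups against the spread between these tumours. No 2 libraries were duplicates (smallest chi-square per degree of freedom 15.2). Profiles used log2 CPM with a prior count of 2. The edgeR fit was run on simulated data with known changes. Alternatives were other scalings and filters, DESeq2 1.42.0, limma 3.58.1, a replicate block and leaving out each library. Named genes were all 10 members, in each other list the called genes or the 3 most abundant, and the 5 genes most like the members' profile. Other genes given with values fall outside this rule and were chosen after their values were seen. They are ESR1, PGR, CDH1, GATA3, EPCAM, FOXA1, KRT19, PTPRC, ACVRL1, ANGPT1, ANGPT2, ANGPT4, TGFB1, TGFB3, PGF, CD34 and genes at or near 0 counts. UNC5B and CNN1, which passed without vehicle tumour 001, are also among them. The members and lists were chosen with earlier results of these data known.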

Additional observations from a re-analysis of the deposited data

Results flagged for a closer look

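In 4 of 20 groups (10 markers in 2 groups of tumours) the highest or the lowest tumour lay far from the rest for the spread of its group. For normally distributed values, chance gives about 1 in 20 groups, or 1 here. The shape of the RPM values was not tested, so the 4 cannot be set against that rate. ENG was at 20.7 RPM in vehicle tumour 001, against 49.1 to 64.9 RPM in the other 5 vehicle tumours. KDR was at 10.3 RPM in vehicle tumour 006, against 2.84 to 4.82 RPM in the others. TIE1 was at 0.238 RPM (9 counts) in vehicle tumour 005, against 0 to 0.0575 RPM in the others. CDH5 was at 0.0575 RPM in vehicle tumour 004, which is 2 counts, and at 0 in the other vehicle tumours. The CDH5 value lies under the limit of 3 counts, and any value above 0 would be flagged where the others are at 0.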

How the results depend on the processing

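Under all 22 alternatives 0 endothelial markers passed the threshold, in edgeR, DESeq2, limma-voom and limma-trend. At an unadjusted p under 0.05 there was 1 marker (VWF) without vehicle tumour 001 and 1 (PECAM1) without evexomostat tumour 003. There were 2 (KDR and CLDN5) without vehicle tumour 006, and 0 in each other alternative. Of 169 recomputed log2 fold changes of markers 6 had the other sign: FLT1 was at 0.20 with quality weights, ESAM ranged from -0.0589 to 0.122 and TEK from -0.0298 to 0.642 when single libraries were left out. TEK was not tested in every alternative, because fewer genes passed the filter there. The count over all genes was 101. It was 649 in DESeq2, 1059 in limma-voom with quality weights, and 1 (without evexomostat tumour 005) to 865 (without vehicle tumour 001) when single libraries were left out; the cause was not tested. For the pairing check, tumours 003, 004, 005 and 007 exist under either treatment. Their deviations from the group means correlated at -0.27, 0.07, 0.05 and -0.10. The labels record only a shared number, and these correlations cannot show whether cages or implant days were also shared. On these 8 libraries a replicate block gave 107 genes, and 733 were called with no replicate block. Both fits called 0 markers. On log2(RPM + 1) and log2(RPM + 0.1) the median of all genes moved by 0.11 and 0.14. CDH5 lay under 3 counts in every library, and the cause was not tested.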

Other observations

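CD34, a surface protein of vessel endothelium, was chosen here after its values were seen. It had 5 to 11 counts in each vehicle tumour and 0 to 4 in each evexomostat tumour, or 0.251 ± 0.0804 RPM (SD, n = 6) and 0.0516 ± 0.0607 (SD, n = 5), and the groups did not overlap. Among the tested genes, which do not include CD34, 2.97% had groups that did not overlap in scaled counts. CD34 was compared in RPM, where the lowest vehicle tumour was at 0.178 and the highest evexomostat tumour at 0.139. CD34 failed the count filter. With no filter its log2 fold change in edgeR was -2.32 (SE 0.63, adjusted p 0.145), and in the authors' deposited table it is -2.23 with an adjusted p of 0.038. No library had more than 11 counts of it.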
